A study of Mus musculus with 9 samples.

Results

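The transcripts described here are those of 10 genes that make NAD, use NAD or decide whether an injured axon survives: Sarm1, Nmnat1, Nmnat2, Nmnat3, Nampt, Naprt, Nmrk1, Mycbp2, Cd38 and Parp1. They were picked by name for what their proteins do, with earlier results of these data known. Of the 10 genes, 8 were among the 15228 genes of the deposited table, and all 8 passed the filter on low levels. Naprt and Cd38 were not analysed here. RNA came from cells sorted as retinal ganglion cells (RGCs) of wild-type C57BL/6J mice of both sexes. The Ctrl group was from normal retinas without injury. The ONC group was taken 3 d after optic nerve crush (ONC) with PBS injected into the eye as the vehicle, and the TPEN group 3 d after the same crush with TPEN, a chelator of mobile zinc, in its place. No injection is stated for Ctrl. In ONC/Ctrl and TPEN/Ctrl, the crush and the injection therefore cannot be told apart. Each group had 3 libraries, and nothing in the sources used here says whether they came from separate mice. The p-values therefore measure the spread between these libraries, which may be technical.

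SARM1 is an enzyme that destroys NAD and drives the self-destruction of injured axons. It is held in check by NAD and is switched on when nicotinamide mononucleotide (NMN), the precursor of NAD, builds up relative to NAD. NMNAT2 converts NMN to NAD in the axon and is short-lived, so it has to be supplied from the cell body, and its loss is a trigger for SARM1. The other NMNAT enzymes work in the nucleus (NMNAT1, whose gene is mutated in an inherited retinal dystrophy) and in mitochondria (NMNAT3). NAMPT and NMRK1 make NMN from nicotinamide and from nicotinamide riboside, MYCBP2 is the ubiquitin ligase subunit that marks NMNAT2 for breakdown, and PARP1 consumes NAD when DNA is damaged.

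Levels are given as RPKM, the reads of a gene scaled to the length of its exons and to the total of its library. The libraries held 19946993 to 23109754 reads. No member was at 0 in any library. Libraries of a group correlated at 0.991 to 0.993 and libraries of different groups at 0.970 to 0.984 across genes, which are not independent replicates (Pearson, log2 scale). The sort kept cells that carry Thy1 protein and lack certain other surface markers, and the authors stained sorted cells for RBPMS protein. In the RNA, the defining RGC markers Rbpms, Slc17a6 and Pou4f1 had means over the 9 libraries under the filter of 0.5 RPKM. Nefl, Nefm and Nefh, of the same marker list, averaged 240, 51.5 and 26.1 RPKM. The 8 rod markers examined summed to 19061 to 19877 RPKM per library in Ctrl, 16764 to 16982 in ONC and 17980 to 18086 in TPEN. The 12 listed RGC markers summed to 373 to 383, 398 to 421 and 312 to 325 RPKM in these groups. The make-up of the RNA thus differed between groups, and the levels below are those of this mixed RNA. In such bulk RNA, fewer cells of a type and less RNA per cell cannot be told apart.

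Nmnat2 was the member with the largest change in ONC/Ctrl and in TPEN/ONC. Its RNA was 1.53-fold lower after ONC than in Ctrl, and 1.81-fold higher with TPEN than after ONC with vehicle. Parp1 RNA was 1.31-fold higher after ONC and 1.22-fold higher with TPEN than in Ctrl. Sarm1 RNA, the transcript of the NAD-destroying enzyme itself, did not pass the test in any comparison. In the test used (limma, log2(RPKM + 0.1), Benjamini-Hochberg adjustment over 13566 genes), 2 of the 8 members had an adjusted p under 0.05 in ONC/Ctrl, where 18.7% of all genes did. In TPEN/ONC, 1 of the 8 members passed (7.39% of all genes), and in TPEN/Ctrl 1 of the 8 (13.4% of all genes). With a fold change of at least 1.5 as well, 1 member passed in ONC/Ctrl (5.34% of all genes), 1 in TPEN/ONC (2.03%) and 0 in TPEN/Ctrl (3.91%). Without the fold threshold, 2 members in TPEN/Ctrl had an unadjusted p under 0.05 and 2 were called with voom. With that threshold, voom called 0 there. The libraries of the 2 groups did not overlap for 5 members in ONC/Ctrl, 4 in TPEN/ONC and 2 in TPEN/Ctrl, against 36.5%, 28.0% and 31.3% of all genes. With 8 members, no share is read as particular to them. Genes called higher made up 62.7% of all calls in ONC/Ctrl, 43.9% in TPEN/ONC and 62.5% in TPEN/Ctrl, and 46.9%, 53.9% and 52.0% after quantile normalization.

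The stretches just upstream of the starts of Nmnat2, Parp1 and Sarm1 are shown because these genes carry the account: the first fell after ONC and was higher with TPEN, the second rose, and Sarm1 is the enzyme that the others feed or restrain. Each is 250 bases of RefSeq sequence (GRCm38.p6) that ends at the base before the start RefSeq gives, written 5′ to 3′ on the strand of the gene. Capitals mark the cAMP response element half-site (TGACG) and the GC box (GGGCGG), each searched on both strands and chosen after the values were seen.
Nmnat2, chr1:152954851-152955100, plus strand: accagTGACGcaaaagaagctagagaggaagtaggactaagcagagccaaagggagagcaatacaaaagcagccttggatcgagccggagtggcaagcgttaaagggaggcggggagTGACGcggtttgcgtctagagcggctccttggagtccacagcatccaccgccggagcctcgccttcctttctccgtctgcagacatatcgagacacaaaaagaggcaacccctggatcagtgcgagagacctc
Parp1, chr1:180568641-180568890, plus strand: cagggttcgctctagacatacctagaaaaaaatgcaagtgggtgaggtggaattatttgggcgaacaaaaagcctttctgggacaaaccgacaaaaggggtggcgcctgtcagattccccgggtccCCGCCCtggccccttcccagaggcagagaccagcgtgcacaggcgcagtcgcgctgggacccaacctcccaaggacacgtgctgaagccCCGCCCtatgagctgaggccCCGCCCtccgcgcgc
Sarm1, chr11:78497755-78498004, minus strand: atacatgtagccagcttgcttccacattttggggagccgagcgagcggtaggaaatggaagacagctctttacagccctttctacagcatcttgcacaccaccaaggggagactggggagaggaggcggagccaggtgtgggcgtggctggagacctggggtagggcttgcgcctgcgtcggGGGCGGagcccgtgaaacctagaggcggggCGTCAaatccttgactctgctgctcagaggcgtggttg
The deposited table starts Nmnat2 further upstream, so that the last 108 bases of its stretch lie within the gene as the table gives it, whereas the other two stretches lie outside their genes. The Nmnat2 stretch held 2 half-sites and no GC box, the Parp1 stretch 3 GC boxes and no half-site, and the Sarm1 stretch 1 of each. Of 32851 promoters of the same length in the RefSeq table, 17.8% held at least 1 half-site and 32.7% at least 1 GC box. The shares with 2 half-sites or 3 GC boxes were not counted, and the matches describe the letters only. The table held a promoter for 8 of the 10 members.

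Per length of transcript, Parp1 was the most abundant member in every group and Sarm1 the next, with no overlap between them or with the members below. Mycbp2, Nampt and Nmnat1 followed in that order, with the ranges of Mycbp2 and Nampt overlapping in ONC alone among the 3 groups. Nmnat2, Nmnat3 and Nmrk1 were lowest. In Ctrl and TPEN, Nmnat2 and Nmnat3 overlapped, as did Nmnat3 and Nmrk1. In ONC, every library had less Nmnat2 than Nmnat3 or Nmrk1.

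**Figure D1:**
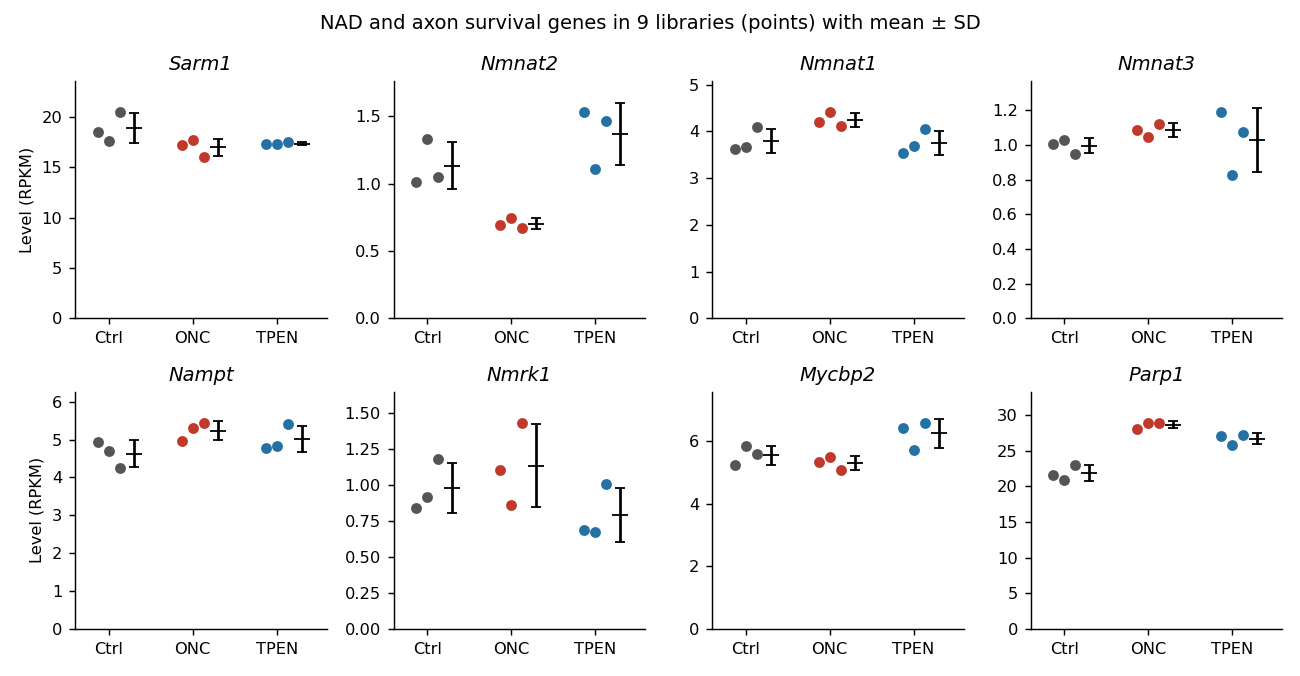
Level in RPKM (y axis, from 0) of the 8 members in each library, with 1 point per library, and the mean ± SD of the 3 libraries of Ctrl, ONC and TPEN beside the points. Nmnat2 lies at 0.670 to 0.746 RPKM in ONC, below every Ctrl and TPEN library, and Parp1 lies at 20.8 to 23.0 RPKM in Ctrl, below every ONC and TPEN library.

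Sarm1 (chromosome 11, 78472330 to 78497754, minus strand, GRCm38) was read 1942 to 2339 times per library, and its exons overlap those of no other listed gene. Its level was 18.5, 17.6 and 20.5 RPKM in Ctrl, 17.2, 17.7 and 16.0 RPKM in ONC, and 17.3, 17.4 and 17.5 RPKM in TPEN. Ctrl and ONC overlapped, the TPEN libraries lay within the range of ONC, and all were below Ctrl by a narrow margin. On the log2 scale, the difference was -0.15 ± 0.059 (SE) in ONC/Ctrl (95% interval -0.28 to -0.019, limma adjusted p = 0.109). It was 0.034 ± 0.059 in TPEN/ONC (95% interval -0.098 to 0.17, limma adjusted p = 0.791) and -0.12 in TPEN/Ctrl (interval -0.25 to 0.015, limma adjusted p = 0.239). For this mixed RNA and the spread between these libraries, the intervals do not reach a change of Sarm1 RNA of 1.5-fold in any comparison. A change within RGCs alone could be diluted in such RNA and was not tested. The small decrease in ONC/Ctrl passed the test with quantile normalization (limma adjusted p = 0.0383) and with voom on whole reads (0.0292). These were 2 of the 17 alternatives tried, and without any one library its limma adjusted p was 0.0532 to 0.291.

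Nmnat2 (chromosome 1, 152954993 to 153119261, plus strand) was at 1.01, 1.33 and 1.05 RPKM in Ctrl, or 1.13 ± 0.175 (mean ± SD, n = 3 libraries). After ONC it was at 0.692, 0.746 and 0.670 RPKM, or 0.703 ± 0.0387. With TPEN it was at 1.53, 1.11 and 1.47 RPKM, or 1.37 ± 0.229. Every ONC library was below every Ctrl and TPEN library, whereas Ctrl and TPEN overlapped, and between 89 and 178 reads stood behind each value. The difference was -0.61 ± 0.15 (SE) on the log2(RPKM + 0.1) scale in ONC/Ctrl (95% interval -0.96 to -0.26, limma adjusted p = 0.0220). That is a 1.53-fold lower level on this scale. Of all genes, 0.752% were lower at an adjusted p under 0.05 and at least 1.5-fold in ONC/Ctrl. In TPEN/ONC the difference was 0.86 ± 0.15 (95% interval 0.51 to 1.21, limma adjusted p = 0.0105), a 1.81-fold higher level on this scale. There, 0.818% of all genes were higher by the same rule. Both comparisons use the same ONC libraries, so the values are set side by side and not as independent results. In TPEN/Ctrl, Nmnat2 was not called (log2 fold change 0.25, 95% interval -0.098 to 0.60, limma adjusted p = 0.346).

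The increase of Nmnat2 in TPEN/ONC kept an adjusted p under 0.05 without any one library (0.0088 to 0.0456). The decrease in ONC/Ctrl did not: its limma adjusted p was 0.0807 without Ctrl replicate 2, 0.0625 without ONC replicate 1 and 0.0669 without ONC replicate 3. Neither change passed a test against a fold change of 1.5. The RGC markers moved in both directions. Of the 9 tested, 4 were higher (Nefm, Sncg, Gap43 and Nrn1) and 1 lower (Nefh) in ONC/Ctrl, where 11.7% of all genes were called higher and 6.97% lower. In TPEN/ONC, 1 was higher and 5 were lower (3.24% and 4.14% of all genes). The RGC transcription factor gene Pou4f1 and the RNA-binding protein gene Rbpms, both below the filter and not tested, had lower levels in every ONC than in every Ctrl library, as Nmnat2 did. Pou4f1 was at 0.571 ± 0.146 RPKM in Ctrl, 0.183 ± 0.117 in ONC and 0.241 ± 0.0234 in TPEN, and Rbpms at 0.605 ± 0.0992, 0.393 ± 0.0451 and 0.319 ± 0.113 RPKM (SD, n = 3). Isl1, a transcription factor gene of RGCs and other inner retinal neurons, also lay lower in ONC than in Ctrl without overlap, at 2.09 ± 0.242 and 1.64 ± 0.132 RPKM (limma adjusted p = 0.0705). Slc17a6, also not tested, had higher levels in every ONC than in every Ctrl library. Of all genes tested, 36.5% showed such a lack of overlap in ONC/Ctrl, in either direction. For Pou4f1, Rbpms and Isl1, the TPEN and ONC libraries overlapped. These RGC genes were named after their values were seen. Thy1, the surface marker that the sort selected for, was at 4.74 ± 0.208 RPKM in Ctrl, 5.35 ± 0.161 in ONC and 7.12 ± 0.443 in TPEN (SD, n = 3). Thy1 rose in TPEN/ONC (log2 fold change 0.40, limma adjusted p = 0.00587). Nefl, the light neurofilament chain, fell in TPEN/ONC (log2 fold change -0.42, limma adjusted p = 6.3e-05), but part of its exons overlaps Nefm. The part of such shifts in the Nmnat2 result was not tested.

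Over the 12142 genes that averaged 1 RPKM or more, those whose log2 levels followed Nmnat2 most closely over the 9 libraries were Camk2b (Pearson r = 0.971), Prdm1 (0.954) and 2810402E24Rik (0.949). CAMK2B is a neuronal calcium-dependent kinase and PRDM1 a transcription factor that sets photoreceptor against bipolar fate. Camk2b was at 2.84 ± 0.229 RPKM in Ctrl, 2.27 ± 0.0631 in ONC and 3.20 ± 0.271 in TPEN (SD, n = 3). For Sarm1 the closest were Pacsin2 (0.966), 1810009A15Rik (0.948) and Gm11744 (0.946). The 9 points share 3 groups, so these values describe a common pattern over groups.

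Nmnat1 (chromosome 4, minus strand) and Nmnat3 (chromosome 9, plus strand) did not take the course of Nmnat2. Nmnat1 was at 3.63, 3.68 and 4.10 RPKM in Ctrl, 4.20, 4.42 and 4.11 RPKM in ONC and 3.54, 3.69 and 4.04 RPKM in TPEN. Its ONC libraries lay above all Ctrl and TPEN libraries by narrow margins, a lack of overlap that 36.5% of all genes showed in ONC/Ctrl and 28.0% in TPEN/ONC. The log2 fold changes of Nmnat1 were 0.16 in ONC/Ctrl (95% interval -0.020 to 0.33, limma adjusted p = 0.210) and -0.17 in TPEN/ONC (-0.35 to 0.0038, limma adjusted p = 0.237). Nmnat3 ranged from 0.946 to 1.03 RPKM in Ctrl, from 1.04 to 1.12 in ONC and from 0.828 to 1.19 in TPEN, with limma adjusted p from 0.626 to 0.912 over the 3 comparisons. Its intervals reach 0.42 in ONC/Ctrl and -0.39 in TPEN/ONC on the log2 scale, so smaller changes could not be seen at 92 to 129 reads per library.

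Within the family, Nmnat2 made up 17.9%, 22.1% and 17.2% of the summed RPKM of the 3 Nmnat genes in Ctrl. The share was 11.6%, 12.02% and 11.3% in ONC and 24.5%, 19.7% and 22.3% in TPEN. Nmnat1 was the major form in every library, with 60.9% to 67.2% in Ctrl, 69.7% to 71.2% in ONC and 56.5% to 65.6% in TPEN. The sum itself was 5.93 ± 0.245 RPKM in Ctrl, 6.03 ± 0.156 in ONC and 6.16 ± 0.488 in TPEN (SD, n = 3), and its ranges overlapped between all groups.

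**Figure D2:**
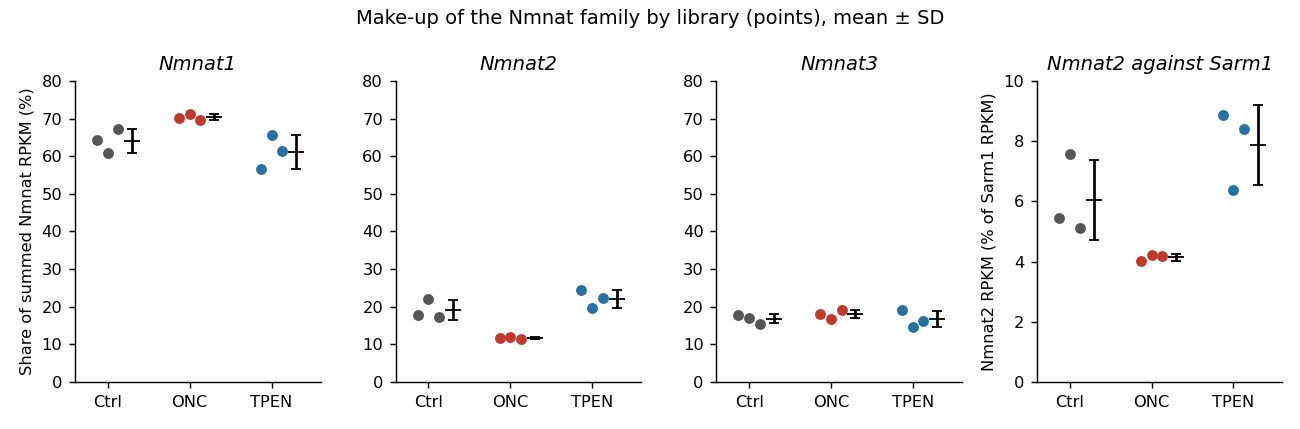
Share of each Nmnat gene in the summed RPKM of the 3 genes (left 3 panels, percent) and Nmnat2 RPKM as a percent of Sarm1 RPKM (right panel), with 1 point per library and the mean ± SD of each group. Nmnat2 made up 11.3% to 12.02% of the family in ONC and 17.2% to 24.5% in the other libraries, and its level was 4.02% to 4.22% of that of Sarm1 in ONC and 5.13% to 8.87% elsewhere.

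Nmnat2 stood at 5.45%, 7.57% and 5.13% of the Sarm1 RPKM in Ctrl, at 4.02%, 4.22% and 4.19% in ONC and at 8.87%, 6.37% and 8.39% in TPEN. On the log2(RPKM + 0.1) scale, the ratio of Nmnat2 to Sarm1 changed by -0.46 from Ctrl to ONC and by 0.82 from ONC to TPEN. The exact permutation test of the 3 groups over 280 splits gave p = 0.0286. The ratio of Nampt to Nmnat2 changed by 0.78 and -0.92 (exact permutation p = 0.0179), and that of Mycbp2 to Nmnat2 by 0.55 and -0.63 (exact permutation p = 0.0214). After Benjamini-Hochberg adjustment over the 3 ratios, each exact permutation p was 0.0286. All ONC libraries lay outside the range of the Ctrl and TPEN libraries in each ratio, and Ctrl and TPEN overlapped. The sizes depend on the pseudocount: with 1 RPKM the changes were -0.18 and 0.44 for Nmnat2 to Sarm1, 0.47 and -0.53 for Nampt to Nmnat2, and 0.27 and -0.27 for Mycbp2 to Nmnat2, with exact permutation p from 0.025 to 0.0429. Without Ctrl replicate 2, the change of Nmnat2 to Sarm1 from Ctrl to ONC was -0.30. The ratios share Nmnat2, so they are not separate results, and for both pairs of groups that involve ONC the two-sided p by exact permutation was 0.1, which is the lower limit for 3 libraries against 3. For Nmnat2 to Sarm1, the exact permutation p of the 3 groups rose above 0.05 without ONC replicate 1 (0.0571), 2 (0.0536) or 3 (0.0536), and without TPEN replicate 1 (0.0571) or 3 (0.0607).

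Of the genes that supply NMN, neither passed the test. Nampt (chromosome 12, plus strand), the rate-limiting enzyme of the salvage route, was at 4.94, 4.71 and 4.24 RPKM in Ctrl, 4.96, 5.30 and 5.45 RPKM in ONC and 4.79, 4.83 and 5.41 RPKM in TPEN. ONC lay just above Ctrl and overlapped TPEN, with a log2 fold change in ONC/Ctrl of 0.18 (95% interval -0.0035 to 0.35, limma adjusted p = 0.167). Nmrk1 (chromosome 19, plus strand) ranged from 0.840 to 1.18 RPKM in Ctrl, from 0.859 to 1.43 in ONC and from 0.673 to 1.004 in TPEN. Its log2 fold change in TPEN/ONC was -0.47, with a wide interval of -0.95 to 0.014 (limma adjusted p = 0.240) that rests on 46 to 110 reads per library.

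Mycbp2 (chromosome 14, minus strand), the gene of the ligase that removes NMNAT2 protein, was at 5.22, 5.84 and 5.57 RPKM in Ctrl, 5.34, 5.50 and 5.06 RPKM in ONC and 6.42, 5.72 and 6.58 RPKM in TPEN. The TPEN libraries were all above those of ONC, and Ctrl overlapped both. Mycbp2 differed by 0.23 ± 0.072 (SE) on the log2 scale in TPEN/ONC (95% interval 0.067 to 0.39, limma adjusted p = 0.0943). It passed with voom on whole reads (adjusted p = 0.00211), which was 1 of the 17 alternatives tried. Without any one library its limma adjusted p was 0.0581 to 0.245. Fbxo45, the partner subunit of MYCBP2 in the ligase, was at 12.6 ± 0.286 RPKM in Ctrl, 11.7 ± 0.414 in ONC and 11.8 ± 0.215 in TPEN (SD, n = 3), with a limma adjusted p of 0.121 in ONC/Ctrl and 0.920 in TPEN/ONC.

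Parp1 (chromosome 1, 180568924 to 180601254, plus strand) was at 21.6, 20.8 and 23.0 RPKM in Ctrl, 28.0, 28.9 and 28.9 RPKM in ONC and 27.1, 25.8 and 27.2 RPKM in TPEN. No group overlapped another. From Ctrl to ONC it rose by 0.39 ± 0.043 (SE) on the log2 scale (95% interval 0.29 to 0.49, limma adjusted p = 1.8e-04), or 1.31-fold, below the 1.5-fold mark. It was also higher in TPEN/Ctrl, by 0.29 ± 0.043 (limma adjusted p = 0.00179), and in TPEN/ONC the difference was -0.10 (95% interval -0.20 to -0.0047, limma adjusted p = 0.205). Of all genes, 11.7% were called higher in ONC/Ctrl and 8.36% in TPEN/Ctrl. Both calls of Parp1 held without any one library. The 12 markers of microglia and macrophages summed to 4.62 to 5.62 RPKM in Ctrl, 60.7 to 64.5 in ONC and 26.6 to 27.8 in TPEN, and all 11 tested rose in ONC/Ctrl. The 6 listed proliferation genes summed to 18.2 to 18.7 RPKM in Ctrl, 21.8 to 25.4 in ONC and 20.2 to 22.4 in TPEN. The part of either in the Parp1 result was not tested.

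**Figure D3:**
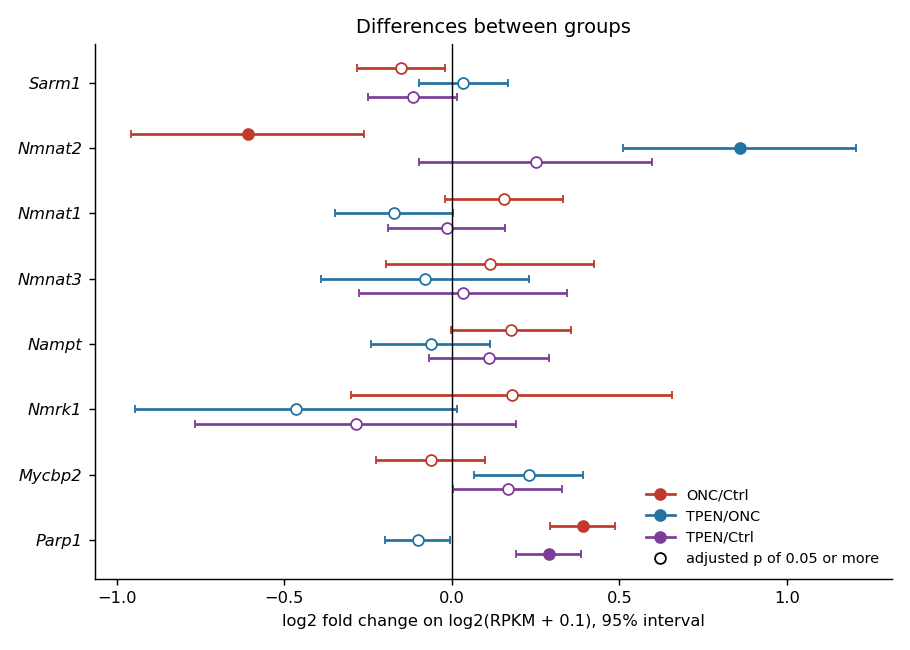
Log2 fold change (x axis) with its 95% interval for the 8 members in ONC/Ctrl, TPEN/ONC and TPEN/Ctrl, where filled points have an adjusted p under 0.05. Only Nmnat2 (-0.61 and 0.86) and Parp1 (0.39 in ONC/Ctrl and 0.29 in TPEN/Ctrl) have filled points.

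The other genes of NAD metabolism were counted in lists compiled from general knowledge. Of 10 genes that make NAD from tryptophan, only Afmid and Nadsyn1 were in the table, and neither passed in any comparison (limma, with 0 genes at an unadjusted p under 0.05 and 0 with voom). Of 13 genes for salvage, phosphorylation, transport and precursor handling, 9 were tested, and Nmrk2 was not analysed here. Nt5e, the gene of the ectoenzyme CD73 that splits NMN outside cells, was the one called gene of this list in ONC/Ctrl and in TPEN/Ctrl, where 18.7% and 13.4% of all genes were called. It was at 15.3 ± 0.229 RPKM in Ctrl, 11.8 ± 0.00321 in ONC and 12.8 ± 0.144 in TPEN (SD, n = 3), with log2 fold changes of -0.37 in ONC/Ctrl (limma adjusted p = 8.05e-05) and -0.25 in TPEN/Ctrl (limma adjusted p = 0.00146). The sums of the rod markers given above took the same order over the groups, and their part in the Nt5e result was not tested. The median log2 fold change of the 9 genes was 0.035 in ONC/Ctrl and 0.043 in TPEN/ONC, against 0.017 and -0.011 over all genes tested. In TPEN/ONC, limma called 0 of the 9, with 3 at an unadjusted p under 0.05 and 0 with voom.

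The NAD-consuming enzymes split. Of 21 genes, all tested, 6 rose (11.7% of all genes did) and 3 fell (6.97%) in ONC/Ctrl, with a median log2 fold change of 0.00084. The 6 that rose were Parp14, Parp12, Parp9, Parp3, Parp10 and Bst1. PARP9, PARP10, PARP12 and PARP14 are known as interferon-induced relatives of PARP1, PARP3 acts in DNA repair, and BST1 is a surface enzyme related to CD38. Parp14 was at 0.513, 0.418 and 0.375 RPKM in Ctrl, 2.12, 2.25 and 2.38 RPKM in ONC and 1.34, 1.17 and 1.23 RPKM in TPEN, with no overlap. It rose by 2.14 ± 0.13 (SE) on the log2 scale in ONC/Ctrl (limma adjusted p = 3.1e-06) and differed by -0.80 ± 0.13 in TPEN/ONC (limma adjusted p = 0.00583). Parp9 (1.66), Parp12 (1.68), Parp3 (1.21) and Parp10 (0.62) rose on the log2 scale in ONC/Ctrl with limma adjusted p from 6.4e-05 to 0.00236. Parp9 shares 9.40% of its exon length with Dtx3l on the other strand, and Parp10 4.80% with Plec on the same strand.

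In TPEN/ONC, 2 of the 21 genes fell (4.14% of all genes did) and 0 rose (3.24%). Parp10 fell with a log2 fold change of -0.57 (limma adjusted p = 0.0110) to 1.68 ± 0.154 RPKM, against 1.61 ± 0.149 in Ctrl (SD, n = 3), and Parp14 was the other. Parp9 (-0.59, limma adjusted p = 0.0581) was near the threshold. Counted in either direction, 5 genes were called with voom and 4 with quantile normalization. In both, Tnks2 was called higher, with log2 fold changes of 0.13 and 0.15. In TPEN/Ctrl, 5 were higher, among them Parp14 (1.34) and Bst1 (0.59), and 1 was lower, Sirt4 (8.36% and 5.01% of all genes). Bst1 took another course, with 3.55 ± 0.222 RPKM in Ctrl, 4.61 ± 0.0935 in ONC and 5.40 ± 0.0533 in TPEN (SD, n = 3). It rose in ONC/Ctrl (log2 fold change 0.37, limma adjusted p = 0.00302), and in TPEN/ONC its log2 fold change was 0.22 (limma adjusted p = 0.0700). Sirt4, Parp6 and Tnks2 fell in ONC/Ctrl, by 0.33, 0.21 and 0.20 on the log2 scale (limma adjusted p = 0.0119, 0.0480 and 0.00493). The Parp6 call was lost without any one library other than TPEN replicate 3 (adjusted p 0.0554 to 0.136 in those 8 fits), and with the replicate number as a block (0.0720). Parp12, Sirt4, Parp6 and Tnks2 were named after their values were seen. The sums of the microglia and macrophage markers given with Parp1 were lowest in Ctrl and highest in ONC. The mean levels of Parp14, Parp9, Parp12 and Parp3 took the same order. For Parp10, TPEN overlapped Ctrl, whereas the marker sums of these groups did not overlap. The part of these markers was not tested.

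Of 20 genes of axon survival and degeneration, 17 were tested, and 3 rose and 1 fell in ONC/Ctrl, where 11.7% of all genes were called higher and 6.97% lower. Stmn2, the gene of a short-lived axonal microtubule protein, was at 0.764, 0.742 and 0.551 RPKM in Ctrl, 1.21, 1.27 and 1.21 RPKM in ONC and 0.947, 1.03 and 0.975 RPKM in TPEN. From Ctrl to ONC it rose by 0.77 ± 0.14 (SE) on the log2 scale (limma adjusted p = 0.00322), in the direction opposite to Nmnat2, and no group overlapped another. In TPEN/ONC its log2 fold change was -0.30 (limma adjusted p = 0.235). In TPEN/Ctrl it passed narrowly (0.47, limma adjusted p = 0.0476), and that call was lost without any one of the 9 libraries (0.0550 to 0.126). Capn2, a calpain protease, rose by 0.96 in ONC/Ctrl and Cast, the gene of the calpain inhibitor calpastatin, by 1.02 (limma adjusted p = 5.6e-05 and 4.9e-04). Capn2 shares 27.1% of its exon length with Gm37885 on the other strand. Ube3a, named after its values were seen, fell by 0.30 (limma adjusted p = 0.0344), and 27.3% of its exon length is shared with genes on the other strand. That call was lost without Ctrl replicate 1 (0.0787), Ctrl replicate 2 (0.114), ONC replicate 1 (0.0927) or ONC replicate 2 (0.104), and with the block (0.0692). In TPEN/ONC, limma called 0 of the 17 genes, with 3 at an unadjusted p under 0.05 and 2 called with voom. In TPEN/Ctrl, 4 were higher (8.36% of all genes), Stmn2, Capn2, Cast and Mapk10. The Mapk10 call (log2 fold change 0.46, limma adjusted p = 0.0335) was lost without Ctrl replicate 1 (0.107), Ctrl replicate 2 (0.0801) or any of the 3 TPEN libraries (0.0511 to 0.107).

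**Figure D4:**
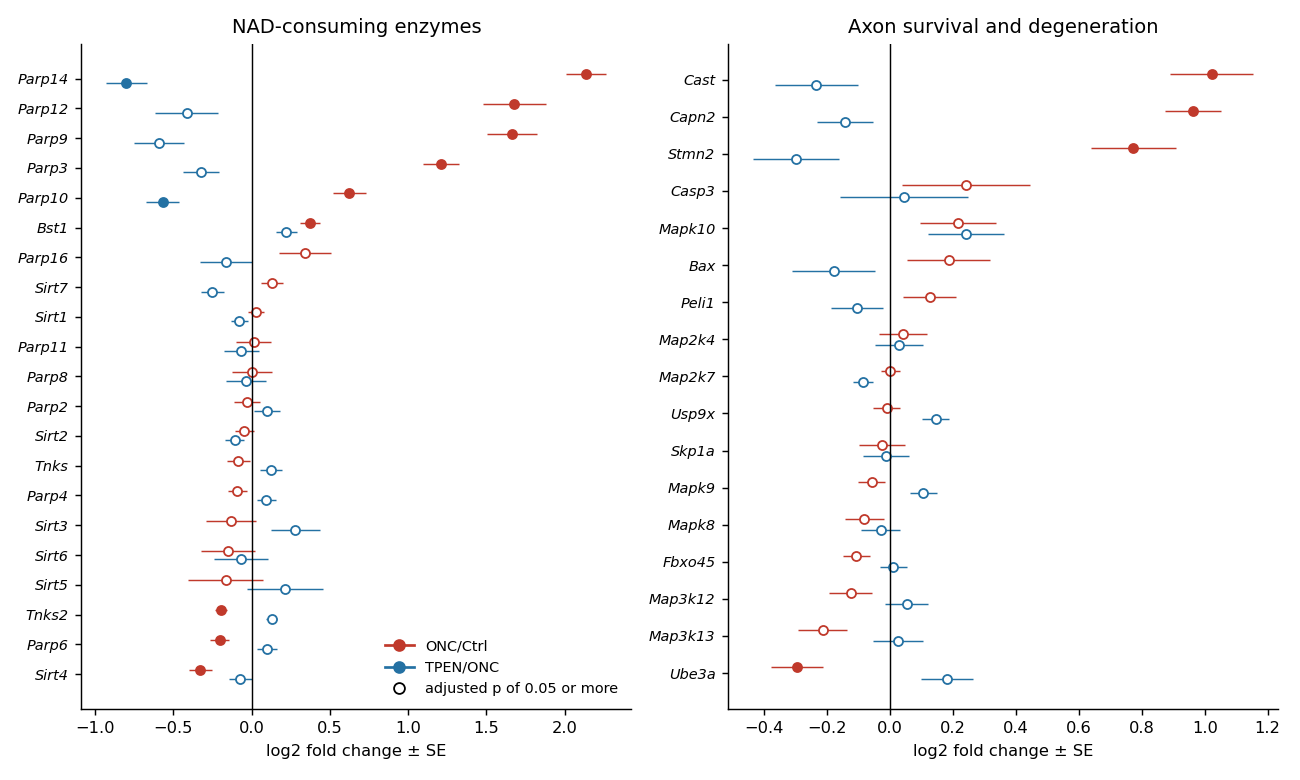
Log2 fold change ± standard error (x axis) in ONC/Ctrl and TPEN/ONC of the 21 NAD-consuming enzymes and the 17 tested genes of axon survival and degeneration, ordered by their value in ONC/Ctrl, with filled points at an adjusted p under 0.05. Parp14 has the highest value of its list in ONC/Ctrl (2.14) and the lowest in TPEN/ONC (-0.80), and Cast the highest of its list in ONC/Ctrl (1.02).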

How the data were processed

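The mRNA of cells sorted as RGCs was sequenced in 9 libraries, 3 each of Ctrl, ONC and TPEN. The authors used a stranded kit with molecular identifiers and ran STAR against GRCm38/mm10. Trimmomatic 0.36 is named in the submitters' processing notes. The deposited RPKM values are reads per exon length and library total, as computed by the authors. How reads were counted, whether by strand, and whether identifiers were collapsed is not given in the sources used here. The deposited p-values, FDR values and log2 fold changes are those of the authors' own comparisons and were not used.

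Whole reads and totals were worked out from the RPKM steps (100% of values whole within 1e-04). log2(RPKM + 0.1) of genes averaging 0.5 RPKM or more was fitted with limma 3.58.1 (R 4.3.3) with a variance trend and all 9 libraries, and tested on simulated data. A gene was called at an adjusted p under 0.05 (where stated, also 1.5-fold or more). Ratios were compared with exact permutation tests in Python 3.11.15. Alternatives were quantile normalization, a pseudocount of 1 RPKM, no filter or one at 1 RPKM, only the 6 libraries compared, each library left out in turn, a block for the replicate number, voom on whole reads and a test against a fold change of 1.5. Named were all members, in each list and comparison up to 3 called genes with the smallest adjusted p, Bst1, Nmrk2, Stmn2 and Fbxo45, and the 3 genes most like Sarm1 and Nmnat2. The members and lists were chosen with earlier results of these data known. Of the marker lists, endothelial genes (2 of 5 listed) summed to 10.8 to 11.6 RPKM in Ctrl, 13.0 to 13.1 in ONC and 14.2 to 15.2 in TPEN. Müller glia genes (8 listed) summed to 387 to 403 RPKM in Ctrl, 376 to 377 in ONC and 322 to 337 in TPEN. No lymphocyte gene was listed.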

Additional observations from a re-analysis of the deposited data

How the results depend on the processing

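The increase of Nmnat2 in TPEN/ONC and the rise of Parp1 in ONC/Ctrl and TPEN/Ctrl kept their direction and an adjusted p under 0.05 under every alternative except the test against a fold change of 1.5. That test left 0 members called in each comparison. With the replicate number as a block, 1 member was called in ONC/Ctrl in place of 2, since the adjusted p of Nmnat2 was 0.0536, and 0 with a fold change of at least 1.5. The block also gave exact permutation p of 0.111 for the ratio of Nmnat2 to Sarm1 and 0.0833 for those of Nampt and of Mycbp2 to Nmnat2. Same-numbered libraries did not deviate together across genes (correlations of -0.062 to 0.027). This cannot show whether they were sorted or processed together. With a pseudocount of 1 RPKM, the members called with a fold change of at least 1.5 fell from 1 to 0 in ONC/Ctrl and in TPEN/ONC, by the construction of the scale for a gene near 1 RPKM. Voom called 2 members in TPEN/ONC and 2 in TPEN/Ctrl, where Mycbp2 was added. Without one library, 1 to 2 members were called in ONC/Ctrl, and 0 to 1 with a fold change of at least 1.5. In the same fits, exact permutation p ran from 0.00714 to 0.0607 for Nmnat2 to Sarm1, from 0.0143 to 0.0357 for Nampt to Nmnat2 and from 0.0107 to 0.0321 for Mycbp2 to Nmnat2. Values near 0 changed sign, none of them called. Quantile normalization gave -0.067 for Nmnat3 and -0.0012 for Parp10 in TPEN/Ctrl. Over the fits that leave out 1 library, TPEN/ONC values ran from -0.18 to 0.054 for Nmnat3 (above 0 without TPEN replicate 2), from -0.0068 to 0.063 for Sarm1 (below 0 without ONC replicate 3), from -0.12 to 0.0010 for Sirt4 (above 0 without TPEN replicate 1) and from -0.013 to 0.037 for Fbxo45 (below 0 without ONC replicate 2 or TPEN replicate 3). TPEN/Ctrl values ran from -0.068 to 0.038 for Nmnat1 (above 0 without Ctrl replicate 3 or TPEN replicate 1), from -0.069 to 0.17 for Nmnat3 (below 0 without TPEN replicate 1) and from -0.019 to 0.11 for Parp10 (below 0 without Ctrl replicate 2 or TPEN replicate 3). Over all genes, the 1002 calls in TPEN/ONC ranged from 47 (test against a fold change of 1.5) to 1688 (voom), and were 536 to 641 without ONC replicate 1, 2 or 3 or TPEN replicate 1 or 3. The 2536 calls in ONC/Ctrl were 297, and the 1814 in TPEN/Ctrl 159, in the test against a fold change of 1.5. Calls of at least 1.5-fold fell from 724 to 457 in ONC/Ctrl, from 275 to 151 in TPEN/ONC and from 530 to 281 in TPEN/Ctrl with a pseudocount of 1 RPKM, and were 432 in TPEN/ONC without a filter. Of the NAD-consuming enzymes, the test against a fold change of 1.5 called 4, 0 and 1 in ONC/Ctrl, TPEN/ONC and TPEN/Ctrl, and of the axon genes 1, 0 and 0. Quantile normalization called 1 salvage gene in TPEN/ONC. The 4 axon genes called in TPEN/Ctrl were 2 with quantile normalization, with only the 6 libraries compared, and without Ctrl replicate 1 or 2 or any TPEN library.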
